A study of Homo sapiens with 12 samples.

Results

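HUS1 was knocked down together with each of 542 other genes in K562 cells, and the growth of the doubly targeted cells without drug was read from the abundance of their sgRNA constructs. K562 is a human chronic myelogenous leukemia line; here it carried CRISPR interference, in which sgRNAs bring a catalytically dead Cas9 repressor to a promoter to lower its transcription. The members are the 4336 constructs, of 1301881 in the library, that hold a HUS1 sgRNA in either position and an sgRNA of another gene in the other. Each partner gene is represented by 8 of them, from 2 HUS1 sgRNAs, 2 partner sgRNAs and both orders. HUS1 was selected on its measured growth effect and on the number of partners that deviate with it in these data, so those values are given as description, while every partner is included whatever its value.

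The growth comparison uses 8 libraries from 2 screens, run in 2022 and 2023 with the same construct library. T0 libraries were taken on day 9 after transduction, and reference libraries, which had received only the DMSO vehicle, on day 18 in 2022 and day 19 in 2023. Each group has 2 replicates. A culture was split into its arms right after its T0 sample, as the labels state, so the replicate number links libraries of the same culture. All arms were selected with puromycin and share a single cell line; the extent of HUS1 repression was not analysed here. Another arm of each culture received niraparib, a PARP inhibitor, at 2 µM for 3 days in 2022 and at 2 and then 3 µM over 4 days in 2023. Libraries held 187.2 to 460.7 megareads in the growth arms. The member constructs had a median of 88 to 283 reads, and between 0 and 15 of them had no read in a library.

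HUS1, RAD9A and RAD1 form the 9-1-1 clamp, a ring that the RAD17 clamp loader places on DNA next to single-stranded stretches coated by RPA. The clamp brings in TOPBP1, which activates the kinase ATR with its partner ATRIP; ATR then acts through claspin (CLSPN) on the kinase CHK1 to hold back origin firing and entry into mitosis. ETAA1 is a second activator of ATR, recruited by RPA without the clamp. The question the design allows is how each partner's knockdown changes growth once HUS1 is already low, compared with the same partner in otherwise unperturbed cells.

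HUS1 knockdown by itself slowed growth. Cells with a HUS1 and a non-targeting sgRNA changed, from T0 to reference and relative to cells with 2 non-targeting sgRNAs, by -1.85 and -1.25 on the log2 scale in the 2022 replicates and by -1.27 and -1.20 in the 2023 replicates, a mean of -1.39 ± 0.30 (SD, n = 4). All 4 replicates fell, and 2022 replicate 1 fell further than the others. The mean was -1.24 without it. The first HUS1 sgRNA by name order gave -1.06 ± 0.24 and the second -1.75 ± 0.40, and their named positions lie 50 bases apart. By this value HUS1 ranked 84 of 543 genes from the most depleted. RAD9A, the partner subunit, had an own growth effect of -1.83 ± 0.22, RAD17 one of -0.87 ± 0.21, and RAD1 one of only -0.24 ± 0.11.

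Most partner knockdowns that slow growth did so less when HUS1 was also low. The effect of a partner in the HUS1 background is its log2 change relative to HUS1 with non-targeting sgRNAs, and the difference between backgrounds subtracts the same partner's effect with non-targeting sgRNAs, so that 0 means that log2 effects add. In the HUS1 background 348 partners lowered growth (64.2% of the 542 tested) and 26 raised it (4.8%) at an adjusted p under 0.05. The difference passed that threshold for 332 partners (61.3%): it was lower for 56 (10.3%) and higher for 276 (50.9%). Its median over partners was 0.16, its middle 95% ran from -0.48 to 1.03, and the median SD over replicates was 0.13. A median above 0 was not particular to HUS1. In the backgrounds of the genes ranked 81 to 83 and 85 to 87 by own growth effect, it ran from 0.22 to 0.41. By the SD of the difference over partners, HUS1 ranked 124 of 543 backgrounds from the widest. Among 27 pairs of non-targeting sgRNAs treated as if they were partners, fitted differences ran from -0.17 to 0.10, and 2 of 27 had a p as small as those called. The higher calls gathered among partners with large effects of their own: 25 of the 26 partners below -2 with non-targeting sgRNAs, and 112 of the 120 between -2 and -1, were higher, with median differences of 0.91 and 0.61. Among the 130 partners within 0.1 of zero effect, 14 were higher and 10 lower, with a median of -0.02.

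The zero of this scale is set by the non-targeting controls. Scaled instead to the bulk of the partners (TMM), the median difference became -0.03 and the calls were 208 lower and 207 higher, and with median-of-ratios scaling they were 200 and 212, with a median of -0.01. The effects in the HUS1 background were lower for 199 and higher for 202 under TMM. When a curve of degree 2 through all partners served as the expectation in place of additivity, 101 were lower and 115 higher. Over all partners the median against the curve was 0.03.

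ETAA1, the clamp-independent activator of ATR, had the lowest difference of all 542 partners. ETAA1 and HUS1 constructs held 2068 and 2038 reads at T0 in 2022 and 776 and 921 at reference, and 1593 and 1628 at T0 in 2023 and 362 and 337 at reference. The reads fell in all 4 cultures, as did those of HUS1 with non-targeting sgRNAs. With non-targeting sgRNAs ETAA1 knockdown was nearly neutral, at -0.03 ± 0.01, and with HUS1 it was -1.27 ± 0.36. The differences were -0.85, -1.03, -1.49 and -1.59 in 2022 replicates 1 and 2 and 2023 replicates 1 and 2, a mean of -1.24 ± 0.35 (SD, n = 4; adjusted p = 3.73e-07). Both 2023 replicates were lower than both 2022 replicates. The fitted difference was -1.22 with the first HUS1 sgRNA and -1.26 with the second.

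RAD1, the remaining subunit of the clamp, was also lower with HUS1. Its effect went from -0.24 ± 0.11 with non-targeting sgRNAs to -0.80 ± 0.13 with HUS1, a difference of -0.56 ± 0.20 (adjusted p = 8.01e-05), with replicates at -0.31, -0.60, -0.80 and -0.53. RAD9A, the subunit with the largest own effect, was higher: -1.83 ± 0.22 alone, -1.22 ± 0.11 with HUS1, a difference of 0.61 ± 0.21 (adjusted p = 0.000168). Against the curve RAD9A turned to -0.12 and no longer passed. RAD17 had a difference of 0.13 ± 0.37 (adjusted p = 0.282), above 0 in both 2022 replicates and below it in both 2023 replicates; against the curve it was lower, at -0.24 (limma adjusted p = 0.00353). Of the 3 measured clamp and loader genes, 1 was thus lower, 1 higher and 1 did not pass, where 10.3% of all partners were lower and 50.9% higher. Against the curve 2 of the 3 were lower and none higher.

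The kinase ATR and the checkpoint genes around it moved in different directions. The 19 measured ATR-CHK1 checkpoint genes include RAD9A, RAD1 and RAD17, already given above. Of the 19, 5 were lower (ETAA1, RAD1, ATM, ATRIP and TTI2), 10 higher and 4 did not pass. The list median was 0.13, against 0.16 over all partners. Against the curve 8 were lower and 7 higher. ATM, the kinase activated by double-strand breaks, changed growth by -0.08 ± 0.15 alone and by -0.62 ± 0.08 with HUS1, a difference of -0.54 ± 0.13 (adjusted p = 2.46e-05). ATRIP, the obligate partner of ATR, had a difference of -0.29 ± 0.17 (adjusted p = 0.0163), which did not pass without 2022 replicate 2 (-0.23, adjusted p = 0.184) or without 2023 replicate 1 (-0.27, adjusted p = 0.0812). TTI2, a cofactor in the folding of ATR and ATM, had -0.23 ± 0.12 (adjusted p = 0.0284) and lost its call when any replicate but 2022 replicate 1 was left out (adjusted p = 0.0737 to 0.127).

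ATR itself was higher, with -1.63 ± 0.17 alone, -0.62 ± 0.44 with HUS1 and differences of 1.63, 0.94, 0.84 and 0.61, a mean of 1.00 ± 0.44 (adjusted p = 0.000124). It kept its direction against the curve, at 0.35, but with the second HUS1 sgRNA alone it did not pass (0.59, adjusted p = 0.102). ATR was also the partner with the lowest level at T0 relative to the single knockdowns, as given below. CLSPN, the adaptor between ATR and CHK1, had the highest difference of all partners, 1.46 ± 0.34 (adjusted p = 5.98e-06): its knockdown gave -1.44 ± 0.12 alone and 0.02 ± 0.37 on top of HUS1. Its double-knockdown reads were low, 460 and 417 at T0 and 457 and 377 at reference in 2022, and 346 and 314 falling to 179 and 192 in 2023. The differences of 1.94, 1.22, 1.21 and 1.47 all lay above 1.

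The RPA subunits, which coat single-stranded DNA, were higher as well: RPA1 0.63 ± 0.15, RPA2 1.10 ± 0.42 and RPA3 0.46 ± 0.31. RPA3 did not pass without 2022 replicate 2 (0.36, adjusted p = 0.117) and stood at -0.01 against the curve. TOPBP1, the ATR activator that the clamp recruits, had a difference of 0.08 ± 0.16 (adjusted p = 0.47), CHEK1, encoding CHK1, 0.03 ± 0.34 (adjusted p = 0.8), and WEE1, the kinase that restrains mitotic CDK1, -0.15 ± 0.24 (adjusted p = 0.206). Against the curve TOPBP1 and WEE1 were lower, at -0.26 and -0.35 (limma adjusted p = 0.00262 and 7.24e-05). The CHEK1 replicates were 0.39 and 0.25 in 2022 and -0.14 and -0.36 in 2023. PKMYT1, the kinase related to WEE1, was higher at 0.41 ± 0.23, but stood at 0.07 against the curve and did not pass with the second HUS1 sgRNA alone (0.16, adjusted p = 0.308). DBF4, the activating subunit of the origin-firing kinase CDC7, was higher at 0.36 ± 0.09 (adjusted p = 2.48e-06). CHEK2, the kinase downstream of ATM, was higher by 0.12 ± 0.14 (adjusted p = 0.0386), a call lost without 2022 replicate 1 (0.10, adjusted p = 0.146) or without 2023 replicate 1 (0.08, adjusted p = 0.21) and turned to -0.07 under TMM scaling.

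Homologous recombination, which repairs breaks by copying an intact sister, was the list with the largest number of lower partners. Of its 28 measured genes, 16 were lower, 6 higher and 6 did not pass, with a median of -0.27 (10.3% of all partners were lower, and their median was 0.16); against the curve 19 were lower and 2 higher. RAD51B, a recombination mediator, was lowest at -0.73 ± 0.41 (adjusted p = 9.89e-05), with replicates at -0.25, -0.57, -0.99 and -1.14. Its effect was -0.33 ± 0.19 alone and -1.06 ± 0.29 with HUS1. BARD1, the partner of BRCA1, was -1.33 ± 0.48 alone and -1.85 ± 0.17 with HUS1, a difference of -0.52 ± 0.36 (adjusted p = 0.00109). Its 2022 replicate 1 stood at -0.00198, while the other 3 replicates ran from -0.83 to -0.57. DNA2, a resection nuclease, was the highest of the list at 0.58 ± 0.10, and against the curve it did not pass (0.10).

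Further members of that list are named here after their values were seen. BRCA2, a recombination mediator, had -0.68 ± 0.53 (adjusted p = 0.000678) with 2022 replicate 1 at 0.08 and the others at -0.75, -0.95 and -1.10. PALB2, which joins BRCA1 to BRCA2, had -0.50 ± 0.37, with 2022 replicate 1 again the single value above 0. RAD51D, XRCC2, RAD54L and SWI5 had -0.47 ± 0.20, -0.45 ± 0.17, -0.48 ± 0.27 and -0.46 ± 0.15, each below 0 in all 4 replicates. BRCA1 had -0.23 ± 0.35 (adjusted p = 0.0599), with a fitted difference of 0.02 for the first HUS1 sgRNA and -0.68 for the second; against the curve it was lower, at -0.43 (limma adjusted p = 9.38e-07).

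ZAR1L, an oocyte factor gene that lies head to head with BRCA2, had the second-lowest difference of all partners, -1.0 ± 0.36 (adjusted p = 3.01e-06), from -0.23 ± 0.16 alone and -1.23 ± 0.26 with HUS1. The replicates stood at -0.57, -0.88, -1.40 and -1.15. The named positions of its sgRNAs are 123 to 210 bases from those of BRCA2 in the coordinates the sgRNA names use, whose build is not given in the sources used here. In RefSeq on GRCh38.p14 the promoter windows of both genes (250 bases before to 50 after the start) share 244 bases, and the starts are separated by 144 bases, chr13:32315364-32315507. They are printed on the plus strand, in which BRCA2 is read rightward from the end of the run and ZAR1L leftward from its beginning, because ZAR1L and BRCA2 were both low with HUS1 and this stretch lies between them; no base is set in capitals.
ZAR1L-BRCA2 interval: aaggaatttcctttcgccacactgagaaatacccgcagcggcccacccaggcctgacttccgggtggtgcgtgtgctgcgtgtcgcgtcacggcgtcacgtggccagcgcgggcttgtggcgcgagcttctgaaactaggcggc
Whether the ZAR1L sgRNAs also lowered BRCA2 transcription was not tested. The sgRNA sites could not be placed on this build.

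The Fanconi anemia genes, which unhook interstrand crosslinks, had 7 lower, 1 higher and 8 not past the threshold of 16 measured, with a median of -0.16; over all partners 10.3% were lower and 50.9% higher, with a median of 0.16. Against the curve 10 were lower and 1 higher. UBE2T, the ubiquitin-conjugating enzyme of the pathway, was lowest at -0.43 ± 0.21 (adjusted p = 0.00137), and STRA13 highest at 0.17 ± 0.12. BRIP1, the helicase also known as FANCJ, was among the 10 lowest partners at -0.52 ± 0.08 (adjusted p = 5.63e-07), with every replicate between -0.60 and -0.45. LIG1, the ligase that seals Okazaki fragments, was lowest of the replicative polymerase and loader list and of the base excision list, at -0.48 ± 0.20 (adjusted p = 0.0004). SLX4, a scaffold for structure-specific nucleases, had -0.31 ± 0.13 (adjusted p = 0.00474).

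The remaining lowest partners are outside these pathways. RHOXF2, a homeobox gene of the X chromosome with a near-identical neighbouring copy, had -0.56 ± 0.07 (adjusted p = 7.73e-08); its fitted difference was -0.34 with the first HUS1 sgRNA and -0.91 with the second. LIN37, a subunit of the DREAM cell-cycle repressor, had -0.52 ± 0.05 (adjusted p = 9.15e-05), and CBLL1, a subunit of the RNA m6A methylation machinery, -0.51 ± 0.06 (adjusted p = 4.98e-05). These SDs of 0.05 to 0.07 were small beside the 0.35 of ETAA1. They are over cultures that share the same 2 sgRNAs of a partner, so they do not measure the spread between those sgRNAs.

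After CLSPN, the highest differences were those of partners that slow growth by themselves. PRIM1, the primase catalytic subunit, had 1.26 ± 0.24 (-1.45 alone, -0.19 with HUS1), and POLA1, the catalytic subunit of the polymerase that extends its primers, 1.09 ± 0.31 (-1.06 alone, 0.03 with HUS1). Their replicates ran from 0.96 to 1.504 and from 0.63 to 1.27, and both kept the call against the curve, at 0.68 and 0.66. MCM10, an origin-firing factor, had 0.94 ± 0.13, and UMPS, the enzyme that makes UMP, 1.05 ± 0.06 (-1.83 alone, -0.78 with HUS1). The mitotic kinase PLK1 had 1.08 ± 0.51 and the nucleoporin NUP62 1.09 ± 0.30; their replicates ran from 0.73 to 1.83 and from 0.71 to 1.34 and rest on means of 303 and 199 reads at T0. The dynactin subunit DCTN3 (1.13 ± 0.23), the centromere histone chaperone HJURP (1.12 ± 0.13) and the augmin subunit HAUS1 (1.07 ± 0.58, from 0.37 to 1.74) did not pass against the curve, where they stood at 0.11, 0.07 and 0.20. All 7 measured genes of the mitotic spindle and centromere list were higher, with a median of 1.07, yet 1 was higher and 1 lower against the curve, where C16orf59, the lowest of the list at 0.33, turned to -0.22. The 4 ribosomal RNA processing genes were all higher, with a median of 0.95, and against the curve none was called in either direction. NOL6, the highest of them at 1.05 ± 0.90, lost its call without 2022 replicate 1 (0.78, adjusted p = 0.0752).

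BLM, the helicase that dissolves double Holliday junctions with TOP3A, RMI1 and RMI2, had 1.04 ± 0.11 (adjusted p = 3.50e-08), from -1.12 ± 0.10 alone to -0.08 ± 0.18 with HUS1. Its replicates of 1.15, 1.08, 1.04 and 0.90 lay close together, and BLM stayed past the threshold against the curve, at 0.59. All 4 genes of the complex were higher, the lowest being TOP3A at 0.23 ± 0.14; under TMM scaling TOP3A stood at 0.05 and did not pass, and against the curve 3 of the 4 were higher. The counts of the other small lists stand beside 50.9% higher and 10.3% lower over all partners. Among them, the 14 helicase and origin genes had 7 higher and 2 lower (ORC4, an origin recognition subunit, lowest at -0.28 ± 0.06), the 20 polymerases and loaders 7 higher and 2 lower, the 7 nucleotide synthesis genes 4 higher, and the 7 SMC5-SMC6 and cohesin genes 3 higher. Against the curve these lists had 2 higher and 4 lower, 3 higher and 4 lower, 1 higher and 3 lower, and none higher and 1 lower. The 3 topoisomerases and the 3 histone chaperone and DNA methylation genes were all higher, with medians of 0.71 and 0.84, as were 3 of 4 mismatch repair genes, with a median of 0.15, near that of all partners. Against the curve 1 topoisomerase and none of the genes of the other two lists was higher, with medians of 0.21, 0.07 and 0.05. XRCC5, the Ku80 end-joining subunit, had 0.83 ± 0.15, TOP2A, the mitotic topoisomerase, 0.94 ± 0.45, and PARP1, the target of niraparib, 0.37 ± 0.26; TOP2A and PARP1 did not pass against the curve, at 0.25 and 0.05. The end-joining factor XRCC4 had -0.11 ± 0.02, a call lost without 2022 replicate 2 or without either 2023 replicate (adjusted p = 0.0511 to 0.102) and against the curve, where it stood at -0.04. None of the 4 BRCA1-A complex genes and none of the 3 post-replication repair genes passed. In the 53BP1-shieldin list of 9, which limits resection of breaks, the sole call was PAXIP1 at -0.15 ± 0.06. Against the curve 4 of these 9 were lower and 2 higher. There 1 post-replication repair gene was higher, and no BRCA1-A complex gene was called. The differences of XRCC4 and PAXIP1 lay within the range of the non-targeting pairs, -0.17 to 0.10.

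Knockdown of 26 partners made HUS1-depleted cells grow faster than HUS1 knockdown alone, and 12 of these had been below 0 in all 4 replicates with non-targeting sgRNAs. An own effect below 0 was usual, with a median of -0.46 over all 542 partners. Others of the 26 raised growth with non-targeting sgRNAs as well. CDC25A, the phosphatase that activates CDK2 and is degraded after ATR-CHK1 signalling, gave 0.52 ± 0.10 with HUS1 (adjusted p = 3.76e-07 for the effect) and 0.03 ± 0.04 without. PPP4C, the catalytic subunit of protein phosphatase 4, went from -0.43 ± 0.04 to 0.32 ± 0.09, a difference of 0.75 ± 0.07 with replicates from 0.64 to 0.80 and the smallest adjusted p of any partner named here, 3.00e-09. Other genes of this group are named after their values were seen. CDK2, the S-phase kinase, went from -0.24 ± 0.02 to 0.38 ± 0.09 (difference 0.62 ± 0.10), and its cyclin CCNE1 from -0.05 to 0.23. TIPRL, a regulator of PP2A-like phosphatases, went from -0.13 to 0.35, and HELB, a helicase that limits end resection, from -0.09 to 0.29. Among the 26 were also 5 factors of nonsense-mediated mRNA decay, a pathway for which no list had been written: UPF2 went from -0.33 to 0.23, SMG5 from -0.16 to 0.19, SMG9 from -0.13 to 0.19, SMG8 from -0.10 to 0.13 and UPF3B from -0.00173 to 0.22. In the opposite sense GPS2, a corepressor subunit whose knockdown raised growth by 0.51 ± 0.09 alone, gave 0.04 ± 0.09 with HUS1, a difference of -0.47 ± 0.06.

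Growth from T0 onward leaves out what happened in the 9 days before it. The level of each double knockdown at T0 was therefore set against the product of the 2 single-gene levels, with both orders of the sgRNAs allowed for; the plasmid pool was not analysed here, so unequal cloning and early loss cannot be told apart, and no test was made. Pairs of non-targeting sgRNAs stood between -0.07 and 0.16 on this log2 scale, with a median of 0.04, and the median partner at -0.00335. The sums of a pair with the other non-targeting sgRNAs leave out constructs within the pair. The allowance for orders does not cover this, so the values of the pairs sit slightly high. ATR was the lowest of 542 at -1.44 (from -1.56 to -1.30 in the 4 T0 libraries). It was followed by RPA1 at -0.88, ATRIP at -0.79, RFC1, the large clamp loader subunit, at -0.76, CLSPN at -0.75, RPA3 at -0.71, POLA1 at -0.67, RPA2 at -0.62, POLD2 at -0.55 and PRIM1 at -0.54. These 10 are the lowest by rank and were named after the values were seen. Beyond them, RAD1 stood at -0.35, RAD9A at -0.27, CHEK1 at -0.26 and ETAA1 at -0.25. In all, 127 partners lay below the lowest pair of non-targeting sgRNAs and 18 above the highest. Because the values of the pairs sit slightly high, 127 is an upper limit and 18 a lower limit.

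The level at T0 changes how the growth differences of these partners read. At reference, against the product of the single levels there, ATR with HUS1 was still below at -0.44 although its growth difference was 1.00, and RPA1 at -0.25 with a growth difference of 0.63. ATRIP was at -1.08 and RAD1 at -0.91, lower at both times. CLSPN, POLA1, RPA2 and PRIM1 were below the product at T0 and above it at reference, at 0.71, 0.42, 0.48 and 0.72. A low T0 count enters both values with opposite sign, so these pairs of values are not independent.

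The 2 screens gave no partner whose difference between backgrounds itself differed past the threshold: 0 of 542 (0%) with edgeR and 0 with DESeq2, while 53 had an unadjusted p under 0.05. Without 2022 replicate 2, 53 partners were lower in 2023 and none higher. The 2022 screen taken alone gave 27 lower and 259 higher partners, and the 2023 screen 69 and 239. Without 2022 replicate 1, in which HUS1 itself had its largest effect, 68 were lower and 265 higher in the data of both screens.

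RAD9A and RAD17 knockdown backgrounds, measured in the same libraries and treated in the same way, were set against HUS1. Against RAD17 the contrast passed the threshold for 6 of 541 partners (1.11%), 3 lower and 3 higher (0.555% each), with 64 at an unadjusted p under 0.05. DESeq2 called 6 lower and 5 higher. Partners that did not pass are not thereby shown to be alike in both backgrounds. RAD1 was the lowest of the 6 partners, at -0.56 ± 0.20 with HUS1 and 0.18 ± 0.12 with RAD17. Its contrast was -0.74 ± 0.13 (edgeR adjusted p = 0.000331), below 0 in 4 of 4 replicates. CBLL1 (-0.47 ± 0.12) and YWHAE, a 14-3-3 protein (-0.33 ± 0.04), were lower with HUS1, and the splicing factor SRSF11 (0.49 ± 0.20), CDC25A (0.35 ± 0.14) and CDK2 (0.32 ± 0.13) were higher. CBLL1, YWHAE and CDK2 did not pass without 2022 replicate 2 or without either 2023 replicate, CDC25A without 2022 replicate 2 or 2023 replicate 1, and the number called ran from 2 to 17 over the replicates left out.

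Against RAD9A, 195 of 541 partners differed (36%): 192 were lower with HUS1 (35.5%) and 3 higher (0.555%). That split depended on the scaling, with 43 lower and 41 higher under TMM, and on single libraries: 71, 102 and 102 were lower without 2022 replicate 2, 2023 replicate 1 and 2023 replicate 2. RAD1 was again lower with HUS1, at -0.56 ± 0.20 against 0.14 ± 0.08 with RAD9A, a contrast of -0.70 ± 0.21. The 5 lowest were ATR at -0.84 ± 0.27 (1.00 with HUS1, 1.84 with RAD9A), COQ2, a coenzyme Q enzyme, at -0.83 ± 0.22, MCM2, a helicase subunit, at -0.82 ± 0.33, the zinc finger gene ZNF574 at -0.80 ± 0.60 and PRIM1 at -0.78 ± 0.30. ATR, ZNF574 and PRIM1 did not pass under TMM scaling, where adjusted p was 0.054 to 0.134. ATR also failed to pass without 2022 replicate 2 or 2023 replicate 1, MCM2 without 2022 replicate 2 or 2023 replicate 2, and ZNF574 and PRIM1 without any of these 3. The ubiquitin ligase RNF168 was the highest at 0.48 ± 0.48, and not past the threshold without 2022 replicate 2 or without 2023 replicate 1.

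ETAA1 was low in all 3 backgrounds, and its contrasts between them did not pass the threshold. Its difference was -1.24 ± 0.35 with HUS1, -1.10 ± 0.33 with RAD9A and -0.92 ± 0.13 with RAD17. The contrast was -0.14 ± 0.06 against RAD9A (adjusted p = 0.548) and -0.32 ± 0.23 against RAD17 (adjusted p = 0.467), below 0 in 4 of 4 replicates in both.

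Niraparib was compared with the reference arm of the same culture. It acted less strongly on several repair knockdowns relative to HUS1 knockdown alone than relative to non-targeting sgRNAs. The response is the log2 change from reference to niraparib, again relative to HUS1 with non-targeting sgRNAs. The response of HUS1 with non-targeting sgRNAs is thus the zero of the values with HUS1, and is not given here. All responses use the same reference libraries as growth, with the opposite sign. Of 542 partners, 54 differed (9.96%): 44 had a higher response with HUS1 than with non-targeting sgRNAs (8.12%) and 10 a lower one (1.85%); under TMM scaling these were 47 and 28, and without 2023 replicate 2 they were 24 and 5. BARD1 knockdown gave -3.66 ± 0.47 with non-targeting sgRNAs and -1.67 ± 0.12 with HUS1, a difference of 1.99 ± 0.56. BRCA2 gave -2.21 ± 0.60 and -0.51 ± 0.35, a difference of 1.71 ± 0.26, and BRCA1 -1.93 ± 0.18 and -0.89 ± 0.13, a difference of 1.05 ± 0.28. In all 3 genes the 4 values with HUS1 lay above the 4 with non-targeting sgRNAs. BRCA2 in 2022 replicate 1 stood highest in both groups, at -1.34 and -0.02. RFC1 (0.87 ± 0.36) and the Fanconi core gene FANCB (0.75 ± 0.14) followed. Of the 16 Fanconi genes 11 were higher and none lower, and of the 28 recombination genes 7 were higher and 1 lower.

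The 5 lowest differences in response included those of CDK2 and CDC25A. Growth and response share the reference libraries with opposite sign, so no relation between them is read from these values. CDK2 changed from -0.00924 ± 0.05 to -0.57 ± 0.11 (difference -0.56 ± 0.08) and CDC25A from -0.17 ± 0.07 to -0.51 ± 0.15 (difference -0.34 ± 0.11). The splicing factor RBM25 had -0.42 ± 0.21, the alternative clamp loader subunit CHTF18 -0.40 ± 0.14 and ATM -0.37 ± 0.10. RBM25 did not pass without 2022 replicate 1 (adjusted p = 0.0544) or without 2023 replicate 1 (adjusted p = 0.0747), nor CHTF18 without 2023 replicate 2 (adjusted p = 0.0688). ETAA1 had a response difference of 0.33 ± 0.25 (adjusted p = 0.0901).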

How the data were processed

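Per the labels, genomic DNA was the PCR template for the sgRNA loci; the submitters' processing notes name Bowtie2 2.3.4.1. The deposited tables hold raw read counts per construct; no molecular identifiers are named, so counts are reads, not molecules. The authors' phenotype tables were not used. No aligner setting or build is given in the sources used here.

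Counts were summed over the constructs of a gene pair and both orders. All 542 partners passed the minimum of 100 mean reads at T0 (lowest 199, median 2007). In edgeR 4.0.16 (R 4.3.3) a quasi-likelihood fit with offsets from the sums of partner with non-targeting, HUS1 with non-targeting and 2 non-targeting sgRNAs tested reference against T0, with a block for each culture (residual degrees of freedom 3, BCV 7.18%) and Benjamini-Hochberg adjustment over all partners. Values per replicate add 1 to each sum before log2; SDs are over 4 replicates. The curve was tested with limma 3.58.1; DESeq2 1.42.0 was an alternative. Tested on simulated data, the fit for the difference between backgrounds recovered 100% of 50 partners at each of -1, -0.5, 0.5 and 1 and made 2.63% false calls among 342 unchanged. The simulated counts shared 1 dispersion over all partners and took the offsets as exact, so these rates hold for that setting only. In the real data 2 of 27 pairs of non-targeting sgRNAs had a p as small as those called.

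The pairing of replicates comes from the labels; the deviations of same-numbered libraries correlated at r = 0.038 to 0.0965 over 4336 constructs, above 0 but weak. Replicates of a group differed by more than sampling noise (chi-square per degree of freedom 2.21 to 6.78). The members and the 26 gene lists were chosen with earlier results of these data known. Genes were named by rule: the 10 lowest and 10 highest past the threshold with 1 sign in 4 of 4 replicates (5 each for the other contrasts), every clamp and checkpoint gene, and the lowest and highest member of each other list; others are marked in the text. Some partners that the rule would name are not reported here.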

Additional observations from a re-analysis of the deposited data

Results flagged for a closer look

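Of 92 values examined over 4 replicates, 7 had a replicate far from the other 3 by Dixon's gap-to-range ratio (chance gives about 1 in 20). HUS1 with non-targeting sgRNAs grew at -1.85 in 2022 replicate 1, against -1.27 to -1.20 in the others. POLA1 had a difference between backgrounds of 0.63 in 2022 replicate 2, against 1.19 to 1.27. RAD9A had 0.93 in 2022 replicate 1, against 0.47 to 0.54. PAXIP1 had -0.24 in 2023 replicate 2, with the others at -0.12. STRA13 had 0.35 in 2022 replicate 1, against 0.09 to 0.13. In the niraparib response, CHTF18 had -0.20 in 2022 replicate 2, against -0.49 to -0.44, and BRCA2 1.31 in 2022 replicate 1, against 1.81 to 1.87.

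For 3 partners both 2022 replicates lay above 0 and both 2023 replicates below: the 2023 minus 2022 change in the difference between backgrounds was -0.54 for RAD17, -0.57 for CHEK1 and -0.50 for PPP2R1A. The test of the difference between screens passed for no partner.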

How the results depend on the processing

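Among the alternatives, the number of partners with a lower difference moved furthest under TMM scaling and the number with a higher difference against the curve. Under TMM scaling 199 partners had a lower and 202 a higher effect in the HUS1 background (median-of-ratios 198 and 202), and the difference was lower for 208 (200). With the curve 101 were lower and 115 higher, and in 2022 alone 27 were lower, with partner effects at 224 lower and 12 higher. HUS1 itself was at -1.06 with its first sgRNA and -1.75 with its second. TMM and median-of-ratios scaling lowered the differences of all 69 partners named by rule by a similar amount (median over all partners from 0.16 to -0.03 and -0.01), so a change of sign there marks a value near 0. Of the 69, those that changed sign with a call before or after were, under TMM, CHEK2 (-0.068), RNASEH2B (-0.18), STRA13 (-0.013) and ERCC1 (-0.14), and under median-of-ratios CHEK2 (-0.056), RNASEH2B (-0.17), STRA13 (-0.000429) and ERCC1 (-0.13). Against the curve they were RAD9A (-0.12), RAD17 (-0.24), TOPBP1 (-0.26), RPA3 (-0.0051), C16orf59 (-0.22), RNASEH2C (-0.019) and NDNL2 (-0.11); the cause was not tested.

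For HUS1 minus RAD9A, TMM gave 43 lower and 41 higher. For HUS1 minus RAD17, TMM left 1 higher, and DESeq2 gave 6 lower and 5 higher. For niraparib, TMM gave 28 lower. Leaving out single replicates gave 44 to 68 lower and 257 to 270 higher for the difference, 308 to 354 and 22 to 26 for partner effects, 0 to 53 lower for the screens, 71 to 244 and 0 to 6 against RAD9A, 1 to 9 and 1 to 8 against RAD17, 5 to 10 and 24 to 57 for niraparib, and -1.46 to -1.24 for HUS1 itself. With no replicate block, the difference had 58 lower and 280 higher, partner effects 359 and 27, RAD9A 229 and 4, RAD17 3 and 3, niraparib 13 and 51 and the screens 0. DESeq2, limma per replicate, no count filter and single positions of HUS1 kept the counts for the difference within 1.5 times. Depth limits partners with few T0 reads, such as NUP62 and NOL6.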
